A study of Mus musculus with 4 samples.

Results

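The data described here are the UMIs, the counts of unique transcript tags, of 9 genes of major histocompatibility complex (MHC) class I antigen presentation: B2m, H2-K1, H2-D1, Tap1, Tap2, Tapbp, Psmb8, Psmb9 and Nlrc5. The rule that picks them is a list of names and uses no measured value, although the list was drawn up with earlier results of these data known, and they are 9 of the 33696 gene features in the 4 deposited matrices. Nuclei came from mouse brain at 21 days after a photothrombotic (PT) injury, in which light applied to the skull activates a circulating dye and clots cortical vessels. The genotype given for the first group is WT, and the second carries Col1a2(creER); Cxcl12(flox), a floxed chemokine gene together with a Cre recombinase that tamoxifen activates and that the Col1a2 promoter directs to fibroblasts. Each group was 1 male and 1 female mouse pooled into 1 library, with lesional nuclei making up 75% of the mix and parenchymal nuclei, from the tissue around the lesion, the rest. The methods give an age range in weeks for the mice of the study in general and none for these animals, and do not say which part of Cxcl12 is deleted.

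Class I molecules show fragments of the proteins a cell makes to CD8+ T cells. Interferon-γ replaces catalytic subunits of the proteasome with inducible ones such as those encoded by Psmb8 and Psmb9, the transporter formed by Tap1 and Tap2 carries the resulting peptides into the endoplasmic reticulum, and tapasin, encoded by Tapbp, holds the transporter to empty class I molecules. The heavy chains H2-K1 and H2-D1 then leave with the light chain β2-microglobulin, encoded by B2m, and Nlrc5 encodes the transactivator that switches these genes on together. In the resting brain the pathway is known to be low in neurons and higher in microglia and endothelium.

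The libraries had no replicate, so each difference below is between these libraries and has no replicate check. Of 23489 barcodes, 21743 nuclei were kept, with medians of 2962 and 2975 UMIs in the lesion and 15915 and 16648 UMIs in the parenchyma. The library labelled control and that labelled Cxcl12-cKO, given in this order throughout, are called control-labelled and cKO-labelled from here on. They shared 47 barcodes. Cxcl12, the targeted gene, was at 106 UMIs per 1000000 UMIs (CPM; 95% counting interval 101 to 111, 1509 UMIs) in lesional fibroblast-like nuclei that were control-labelled and at 215 CPM (207 to 222, 3135 UMIs) in those that were cKO-labelled. It was also higher in cKO-labelled lesional astrocyte-like nuclei (83.29 and 138.5 CPM) and myeloid-like nuclei (17.03 and 32.85 CPM). In lesional T-cell-like nuclei it was level (40.61 and 40.62 CPM). The targeted gene therefore went against the labels, and not in fibroblast-like nuclei alone. The 3′ counts check nothing where the deleted part is unknown. All intervals given here are exact and cover counting error only. Between 9.75% and 14.3% of the nuclei of a matrix held UMIs of both sexes, and the part of free RNA or doublets in the results was not tested.

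The promoters of 4 members are shown because the values below separate H2-D1 from B2m and from H2-K1, whose window is a near copy of its own, and because Tap1 and Psmb9 share a window. RefSeq windows of build GRCm38.p6, from 250 bases before to 50 bases after the start site, were found for 7 of the 9 members, while Tap2 and Nlrc5 had none in the table used. They lie at chr2:122147437-122147736 on the + strand (B2m), chr17:34000298-34000597 on the - strand (H2-K1), chr17:35262844-35263143 on the + strand (H2-D1) and chr17:34187306-34187605 on the + strand (Tap1). Capitals mark matches on either strand to GAANNGAAA, a core of the sites that interferon regulatory factors bind, or to a core of NF-κB sites.
B2m: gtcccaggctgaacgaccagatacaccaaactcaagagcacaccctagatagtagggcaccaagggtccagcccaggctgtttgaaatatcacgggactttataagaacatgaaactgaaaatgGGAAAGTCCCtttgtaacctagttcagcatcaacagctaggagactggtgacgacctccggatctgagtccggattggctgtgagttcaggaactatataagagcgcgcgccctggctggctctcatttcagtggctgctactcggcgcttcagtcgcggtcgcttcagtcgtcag
H2-K1: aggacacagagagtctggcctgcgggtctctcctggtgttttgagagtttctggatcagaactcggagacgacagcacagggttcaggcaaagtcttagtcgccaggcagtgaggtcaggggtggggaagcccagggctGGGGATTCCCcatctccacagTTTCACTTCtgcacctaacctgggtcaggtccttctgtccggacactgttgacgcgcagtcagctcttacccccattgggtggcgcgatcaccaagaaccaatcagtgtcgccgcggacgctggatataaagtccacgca
H2-D1: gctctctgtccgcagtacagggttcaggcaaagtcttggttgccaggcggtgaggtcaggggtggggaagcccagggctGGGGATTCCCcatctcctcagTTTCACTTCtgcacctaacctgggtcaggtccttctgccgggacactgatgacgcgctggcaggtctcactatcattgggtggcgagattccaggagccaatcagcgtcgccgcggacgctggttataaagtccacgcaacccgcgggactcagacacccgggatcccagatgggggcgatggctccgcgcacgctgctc
Tap1: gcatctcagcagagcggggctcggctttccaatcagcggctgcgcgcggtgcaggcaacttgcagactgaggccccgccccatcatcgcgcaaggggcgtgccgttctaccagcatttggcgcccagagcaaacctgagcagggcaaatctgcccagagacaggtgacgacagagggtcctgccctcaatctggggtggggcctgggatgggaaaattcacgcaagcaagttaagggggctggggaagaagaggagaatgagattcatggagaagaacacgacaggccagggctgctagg

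The windows of H2-K1 and H2-D1 were identical at 206 of 228 aligned bases (90.4%). Both held GAANNGAAA, as did 7.52% of 32851 RefSeq promoter windows of the same length. The match lay 90 bases before the RefSeq start site in H2-K1 and 150 bases before it in H2-D1. These start sites do not lie at matching bases of the aligned windows, so distances from them differ with the annotation. The NF-κB core lay 111 and 171 bases before the start sites of H2-K1 and H2-D1 and 126 bases before that of B2m, and was in 4.79% of all windows. H2-K1 has a second RefSeq window, not shown, at chr17:34000284-34000583 on the - strand. By its start site GAANNGAAA lies 104 bases and the NF-κB core 125 bases before. TGACG, which is within the site that CREB binds, was in the windows of B2m, H2-K1, H2-D1, Tap1 and Psmb9 and in 20.8% of all windows. The Tap1 window shared 275 bases with that of Psmb9 (chr17:34187281-34187580 on the - strand), whose start site lies 226 bases away on the other strand. These matches describe letters in a window and not binding.

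**Figure D1:**
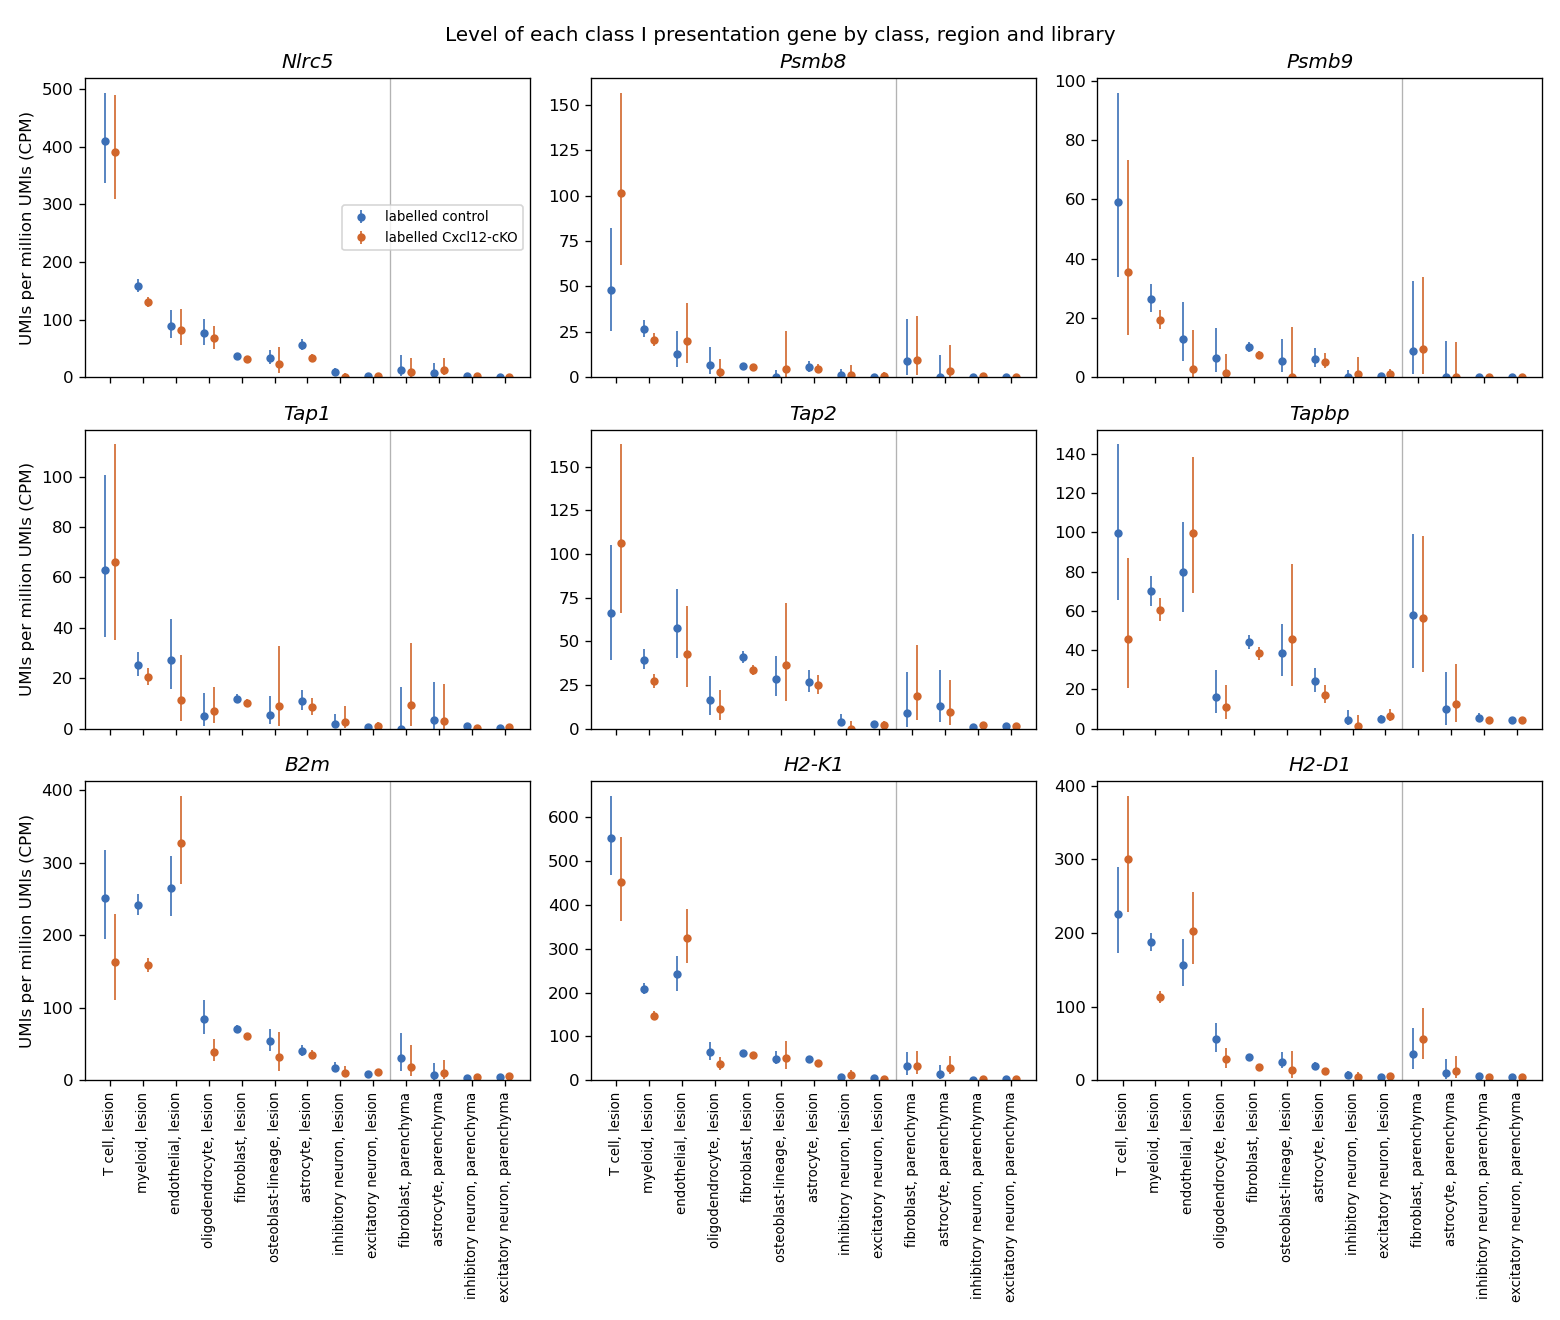
Level of each of the 9 genes in CPM (linear axes that start at 0 and differ between panels) in the classes of nuclei of the lesion (left of the line) and the parenchyma (right), in the control-labelled (blue) and cKO-labelled (orange) library; points are CPM of summed UMIs and bars are exact Poisson intervals at 95%. In every panel the highest points are in lesional T-cell-like, myeloid-like or endothelial-like nuclei and neuron-like nuclei are near 0.

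Class I presentation genes were highest in lesional T-cell-like nuclei, followed by myeloid-like and endothelial-like nuclei, and lowest in neuron-like nuclei. A class is called X-like after the markers that led its clusters, and the members themselves were left out of clustering. Summed over the 9 genes, T-cell-like nuclei were at 1776 CPM (1621 to 1942, 129 nuclei) in the control-labelled library and 1660 CPM (1485 to 1850, 108 nuclei) in the cKO-labelled one. Myeloid-like nuclei, the microglia and macrophages of the lesion, were at 986 CPM (957 to 1014, 1784 nuclei) and 698 CPM (679 to 718, 2303 nuclei), and endothelial-like nuclei at 944 CPM (870 to 1024, 213 nuclei) and 1113 CPM (1005 to 1229, 109 nuclei). The order of myeloid-like and endothelial-like nuclei thus differed between the libraries, and only in the cKO-labelled one were their intervals apart. Fibroblast-like nuclei, the most numerous class of the lesion, were at 314 CPM (305 to 323, 4152 nuclei) and 265 CPM (257 to 273, 4071 nuclei).

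Glial and bone-lineage classes lay near the fibroblast-like nuclei and neurons far below. Oligodendrocyte-like nuclei were at 330.1 CPM (286 to 379) and 205 CPM (173 to 242), osteoblast-lineage-like nuclei, whose markers are those of bone-forming cells, at 239 CPM (208 to 273) and 215 CPM (158 to 285), and astrocyte-like nuclei at 237 CPM (219 to 255) and 179 CPM (165 to 194) in the control-labelled and cKO-labelled library. Intervals overlapped between oligodendrocyte-like and fibroblast-like and between osteoblast-lineage-like and astrocyte-like nuclei in the control-labelled library. In the other library the neighbours fibroblast-like, osteoblast-lineage-like, oligodendrocyte-like and astrocyte-like all overlapped. Lesional excitatory-neuron-like nuclei were at 28.1 CPM (24.5 to 32.1) and 34.0 CPM (27.9 to 41.1), and inhibitory-neuron-like nuclei at 51.7 CPM (40.8 to 64.5) and 33.6 CPM (22.1 to 48.8).

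Depth differed between classes, so the share of nuclei with a UMI was also taken after thinning each nucleus to 1000 UMIs. A UMI of any member was found in 92.3% and 86.1% of T-cell-like, 76.1% and 74.0% of myeloid-like, 54.1% and 51.5% of lesional fibroblast-like and 27.6% and 29.99% of parenchymal excitatory-neuron-like nuclei of the control-labelled and cKO-labelled library. After thinning these shares were 74.8% and 79.1%, 54.5% and 47.1%, 25.5% and 22.2%, and 2.00% and 2.27%. Parenchymal neurons stand here for a class in which the pathway is low, and the thinned shares of the lesional immune classes lay far above theirs. Thinning left out 99 and 121 myeloid-like nuclei with fewer UMIs.

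Myeloid-like and fibroblast-like nuclei together supplied most class I UMIs of the lesion. Myeloid-like nuclei were 22.04% of control-labelled and 29.0% of cKO-labelled lesional nuclei and held 40.4% and 46.9% of the member UMIs. Fibroblast-like nuclei held 38.6% and 37.2%, and T-cell-like nuclei 4.14% and 3.15%. Summed over every lesional nucleus the members were at 347 CPM (340.4 to 353) and 336 CPM (330 to 343), against 23.4 CPM (22.1 to 24.8) and 25.4 CPM (24 to 26.9) over every parenchymal nucleus. The parenchymal matrices were mostly neurons, so the regions differ in the cells they hold. Parenchymal myeloid-like nuclei, of which there were 32 and 46, were at 1635 CPM (1375 to 1929) and 1306 CPM (1090 to 1551), above those of the lesion in both libraries. Their composition differed as well: Nlrc5 had 2 and 3 UMIs there (23.4 CPM, 2.83 to 84.4, and 30.4 CPM, 6.26 to 88.7), below its level in lesional myeloid-like nuclei, whereas H2-D1 was at 525 CPM (383 to 703) and 354 CPM (247 to 493), above it.

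The transactivator Nlrc5 (ENSMUSG00000074151) was at 409.8 CPM (337 to 494) and 391 CPM (309 to 489) in lesional T-cell-like nuclei of the control-labelled and cKO-labelled library. It was at 158 CPM (147 to 170.1) and 131 CPM (123 to 140) in myeloid-like, 76.4 CPM (56.2 to 102) and 67.5 CPM (49.8 to 89.5) in oligodendrocyte-like, 56.1 CPM (47.6 to 65.7) and 32.9 CPM (27.0 to 39.7) in astrocyte-like and 36.4 CPM (33.4 to 39.7) and 31.6 CPM (28.8 to 34.6) in fibroblast-like nuclei. T-cell-like nuclei stood clear of every other class for this gene. As a share of the UMIs of all members, Nlrc5 made up 23.1% and 23.6% in T-cell-like, 16.1% and 18.7% in myeloid-like, 11.6% and 11.9% in fibroblast-like and 3.38% and 4.61% in parenchymal excitatory-neuron-like nuclei.

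The inducible proteasome subunits were sparse, with 582 UMIs of Psmb8 (ENSMUSG00000024338) and 624 UMIs of Psmb9 (ENSMUSG00000096727) over all kept nuclei. Psmb8 was at 48.0 CPM (25.6 to 82.1) and 102 CPM (62.0 to 157) in T-cell-like nuclei and at 26.7 CPM (22.3 to 31.8) and 20.7 CPM (17.4 to 24.3) in myeloid-like nuclei of the control-labelled and cKO-labelled library. Psmb9 was at 59.1 CPM (33.8 to 95.9) and 35.5 CPM (14.3 to 73.2) in the former and 26.5 CPM (22.1 to 31.6) and 19.2 CPM (16.1 to 22.8) in the latter. In fibroblast-like nuclei Psmb8 and Psmb9 were at 5.75 to 10.2 CPM over both libraries, and in parenchymal neurons below 1 CPM.

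**Figure D2:**
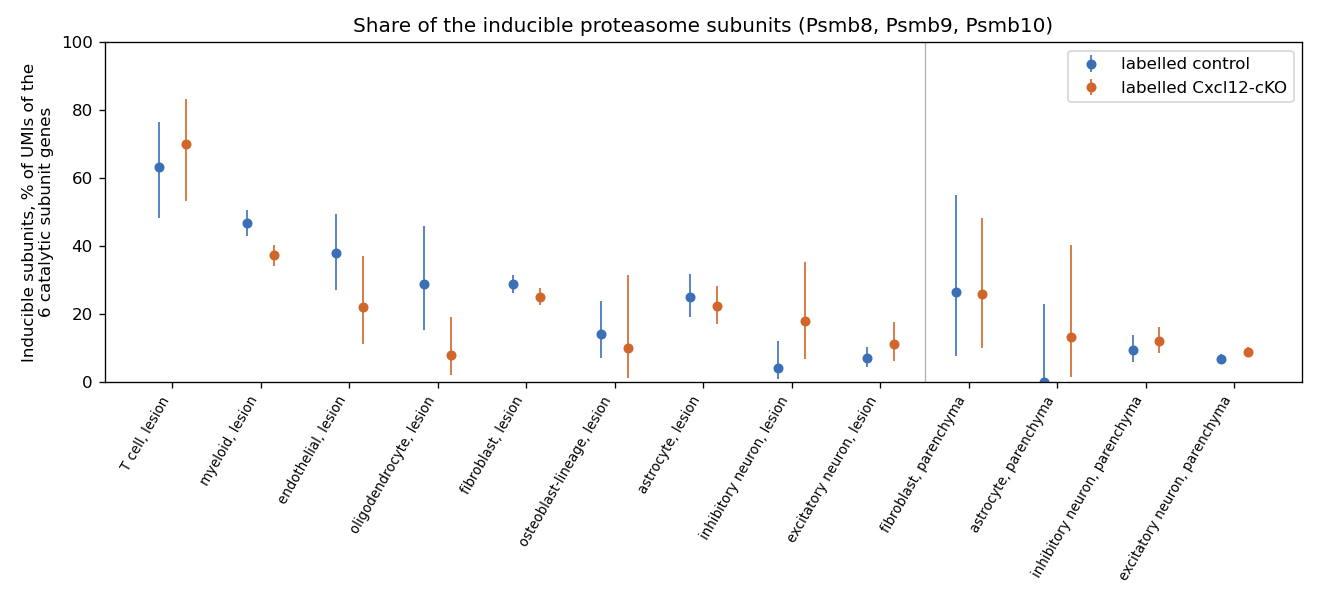
Share, in percent on an axis from 0 to 100, of UMIs from the inducible catalytic subunit genes Psmb8, Psmb9 and Psmb10 among those of the 6 catalytic subunit genes, by class, region and library; bars are exact Clopper-Pearson intervals at 95%. The share falls from 63.3% and 70.0% in T-cell-like nuclei to 6.98% and 8.85% in parenchymal excitatory-neuron-like nuclei.

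The share of inducible genes among the 6 catalytic genes of the proteasome uses no other UMIs, and Psmb8, Psmb9 and Psmb10 replace Psmb5, Psmb6 and Psmb7. The inducible share was 63.3% (48.3 to 76.6) and 70.0% (53.5 to 83.4) in T-cell-like nuclei, 46.8% (43.1 to 50.6) and 37.4% (34.3 to 40.4) in myeloid-like nuclei and 29.0% (26.4 to 31.7) and 25.1% (22.7 to 27.6) in fibroblast-like nuclei of the control-labelled and cKO-labelled lesions. These 3 classes had the same order as for the summed members, and among them the intervals were apart between the libraries in myeloid-like nuclei alone. It was 38.0% (27.3 to 49.6) and 22.2% (11.2 to 37.1) in endothelial-like and 25.1% (19.3 to 31.8) and 22.5% (17.3 to 28.3) in astrocyte-like nuclei. Parenchymal excitatory-neuron-like nuclei were at 6.98% (5.72 to 8.41) and 8.85% (7.47 to 10.4). Of their 101 and 135 inducible UMIs, Psmb8 gave 8 and 9 and Psmb9 gave 3 and 6. Most were thus of Psmb10, which is not a member, so this share says little on Psmb8 and Psmb9 in neurons.

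The peptide transporter and its tether were spread more evenly over classes than Nlrc5. Tap2 (ENSMUSG00000024339) was at 66.5 CPM (39.4 to 105) and 107 CPM (66.0 to 163) in T-cell-like, 39.5 CPM (34.1 to 45.6) and 27.3 CPM (23.5 to 31.4) in myeloid-like and 40.9 CPM (37.7 to 44.4) and 33.6 CPM (30.7 to 36.7) in fibroblast-like nuclei of the control-labelled and cKO-labelled lesion. It was the member whose level in fibroblast-like nuclei was not below that in myeloid-like ones. Tap1 (ENSMUSG00000037321) was at 62.8 CPM (36.6 to 101) and 66.0 CPM (35.2 to 113) in T-cell-like, 25.5 CPM (21.1 to 30.4) and 20.5 CPM (17.3 to 24.2) in myeloid-like and 11.9 CPM (10.1 to 13.8) and 10.1 CPM (8.51 to 11.8) in fibroblast-like nuclei. Tapbp (ENSMUSG00000024308) was at 70.03 CPM (62.7 to 78.0) and 60.4 CPM (54.8 to 66.5) in myeloid-like and 44.1 CPM (40.7 to 47.6) and 38.4 CPM (35.2 to 41.7) in fibroblast-like nuclei. Its share of member UMIs was 7.11% and 8.65% in myeloid-like but 23.95% and 22.8% in parenchymal excitatory-neuron-like nuclei.

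Of the class I chains, B2m (ENSMUSG00000060802) was highest in endothelial-like nuclei, at 266 CPM (227 to 309) and 327 CPM (270.2 to 393), with T-cell-like nuclei at 251 CPM (195 to 318) and 163 CPM (111 to 229) and myeloid-like nuclei at 242 CPM (228 to 256) and 159 CPM (150 to 169) in the control-labelled and cKO-labelled library. The intervals of these 3 classes overlapped in the former but endothelial-like nuclei stood clear in the latter. H2-K1 (ENSMUSG00000061232) was highest in T-cell-like nuclei, at 554 CPM (469 to 650) and 452 CPM (363 to 556), with 209 CPM (196 to 223) and 148 CPM (139 to 157) in myeloid-like nuclei. H2-D1 (ENSMUSG00000073411) was at 225 CPM (172 to 289) and 299.6 CPM (228 to 386) in T-cell-like, 188 CPM (176 to 200.3) and 113 CPM (105 to 121) in myeloid-like and 30.8 CPM (28.0 to 33.8) and 18.3 CPM (16.2 to 20.6) in fibroblast-like nuclei. H2-D1 made up 19.0% and 16.2% of member UMIs in myeloid-like but 9.81% and 6.91% in fibroblast-like nuclei.

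Across 26 combinations of class, region and library with at least 50 nuclei, every member followed the sum of all 9, with Pearson's r of log2(CPM+1) from 0.854 for Psmb9 to 0.988 for H2-K1. Each member is part of the sum, and the combinations share libraries and depth, so these values are a description. Among genes outside the list with at least 500 UMIs, the closest patterns were those of Pak2 (r = 0.973), Casp8 (0.971), Taf3 (0.968), Rpl13a (0.963), Msn (0.962), Eif3a (0.961), Zc3hav1 (0.960), Rcsd1 (0.959), Apobec3 (0.959) and Mbnl1 (0.958).

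Lesional myeloid-like nuclei had lower class I levels in the cKO-labelled than in the control-labelled library. The summed members were at 986 and 698 CPM, a log2 ratio of cKO-labelled over control-labelled of -0.50 (-0.56 to -0.44). With at least 20 UMIs over both sides and a log2 ratio of at least 0.5 in size as the rule for counting a gene as higher or lower, 4 of the 9 members were lower and 0 higher, against 7.80% of 14750 genes that were lower and 6.61% that were higher. The 4 were H2-D1, from 188 to 113 CPM (-0.73, -0.87 to -0.59), B2m, from 242 to 159 CPM (-0.61, -0.73 to -0.49), Tap2, from 39.5 to 27.3 CPM (-0.54, -0.84 to -0.24), and H2-K1, from 209 to 148 CPM (-0.51, -0.63 to -0.38). The other 5 members had ratios between -0.21 (Tapbp) and -0.46 (Psmb9). All 9 were below 0, with a median of -0.46 against -0.021 over all genes counted. Myeloid-like nuclei also held fibroblast marker UMIs, summed over 8 genes, at 1057 and 684 CPM in the 2 libraries, and the part of these in the ratio was not tested.

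**Figure D3:**
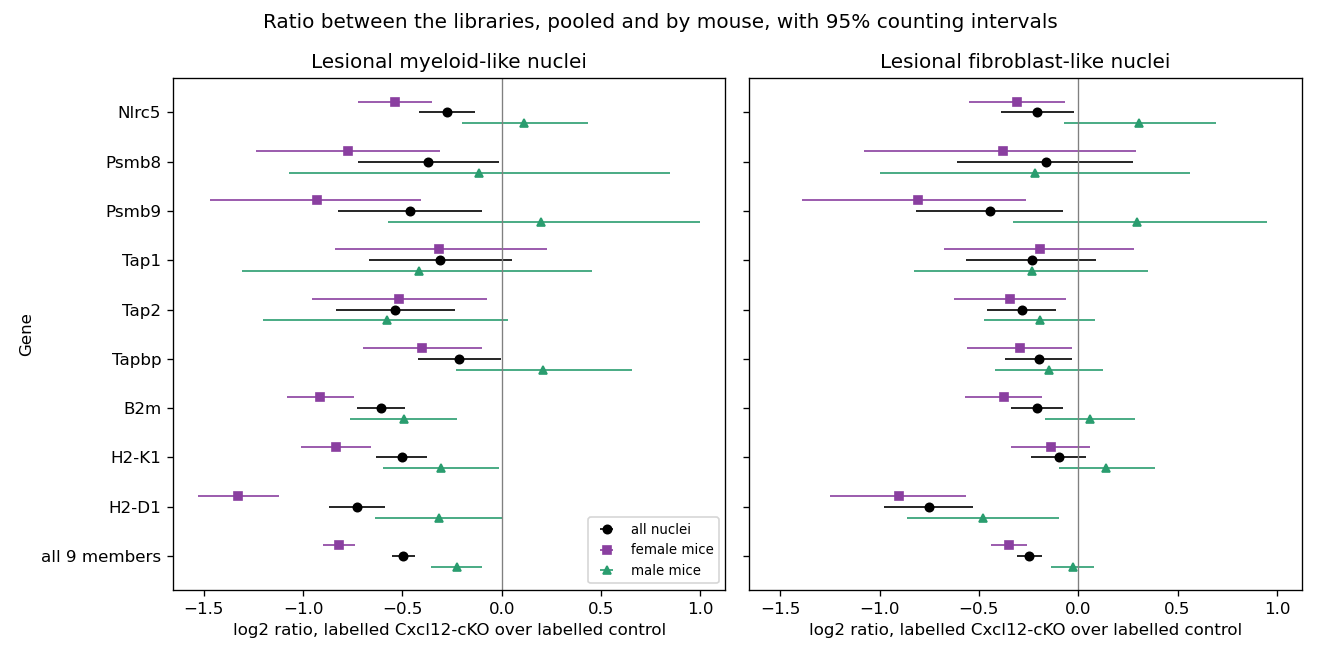
Log2 ratio of the cKO-labelled over the control-labelled library for each member and their sum in lesional myeloid-like (left) and fibroblast-like (right) nuclei, for all nuclei (black), the nuclei of the female mice (purple) and those of the male mice (green); bars are exact counting intervals at 95% and the line marks no difference. In myeloid-like nuclei the female mice lie furthest below 0, at -0.82 for the sum, and the male mice nearest to it, at -0.23.

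The mice of each library were told apart by the sex-linked UMIs of their nuclei, and the size of the difference depended on the mouse. Summed members in lesional myeloid-like nuclei were at 1344 CPM (1292 to 1398, 691 nuclei) in the control-labelled female, 643 CPM (603 to 684, 539 nuclei) in the control-labelled male, 761 CPM (731 to 791, 1131 nuclei) in the cKO-labelled female and 549 CPM (514 to 584, 532 nuclei) in the cKO-labelled male. The control-labelled female stood above the other 3 mice, and the control-labelled mice differed from each other by a log2 ratio of 1.06 (0.96 to 1.17), more than the libraries did. In the cKO-labelled library the female was above the male by 0.47 (0.36 to 0.58). With 1 mouse of each sex per library, sex, mouse and genotype cannot be told apart beyond these values. Median UMIs per nucleus were 2219, 2446, 2356 and 2677 in the same order, and nuclei can be assigned to a male only through a Y-linked UMI. Myeloid-like nuclei with no sex-linked UMI, which are shallower (medians of 1500 and 1581 UMIs), did not share the direction, at 905 CPM (832 to 983, 362 nuclei) in the control-labelled and 988 CPM (915 to 1064, 368 nuclei) in the cKO-labelled library. Those with UMIs of both sexes were at 846 CPM (779.8 to 917, 192 nuclei) and 589.6 CPM (549 to 633, 272 nuclei).

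Among the nuclei of the female mice, 7 of 9 members were lower in the cKO-labelled mouse, all but Tap1 and Tapbp, against 14.1% of 12529 genes. The median of the members was -0.77 and that of all genes -0.024. H2-D1 had the ratio furthest from 0, from 263 to 105 CPM (-1.33, -1.53 to -1.12), followed by Psmb9, from 35.0 to 18.3 CPM (-0.93, -1.47 to -0.41), B2m, from 326 to 173 CPM (-0.91, -1.08 to -0.75), and H2-K1, from 289 to 162 CPM (-0.84, -1.01 to -0.66). Psmb8 went from 43.0 to 25.1 CPM (-0.77, -1.24 to -0.31) and Nlrc5 from 228 to 157 CPM (-0.54, -0.73 to -0.35).

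Among the nuclei of the male mice, 1 of 9 members was lower, against 9.89% of 11162 genes. That member was Tap2, at 35.1 CPM in the control-labelled and 23.5 CPM in the cKO-labelled male (-0.58, -1.20 to 0.03). B2m was at 167 and 118 CPM (-0.49, -0.77 to -0.23) and H2-D1 at 110.3 and 88.7 CPM (-0.32, -0.64 to 0.007), while Nlrc5 was at 99.3 and 108 CPM (0.11, -0.20 to 0.43) and Psmb9 at 16.9 and 19.5 CPM (0.20, -0.58 to 1.00). B2m, H2-K1, H2-D1, Tap1, Tap2 and Psmb8 were below 0 in both sexes, and Nlrc5, Tapbp and Psmb9 were below 0 in the females alone.

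Myeloid-like nuclei of the lesion were clustered again, and the ratio lay below 0 with its interval in 5 of the 6 subclusters. Border-associated-macrophage-like nuclei, which normally line vessels and meninges, were at 1269 CPM (1149 to 1398, 154 nuclei) in the control-labelled and 813 CPM (700.3 to 938, 110 nuclei) in the cKO-labelled library, a log2 ratio of -0.64 (-0.90 to -0.39). Homeostatic-microglia-like nuclei were at 897 CPM (854 to 942, 816 nuclei) and 620 CPM (589 to 652, 968 nuclei), a ratio of -0.53 (-0.64 to -0.43), with H2-D1 at 145 and 73.7 CPM (-0.97). Subcluster 1, in which 5 markers of scar- or disease-associated macrophages were up although the neutrophil list scored as high with fewer markers up, was at 804 CPM (755 to 856, 480 nuclei) and 614 CPM (583 to 647, 781 nuclei), a ratio of -0.39 (-0.51 to -0.27).

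Monocyte-or-dendritic-cell-like nuclei, professional antigen-presenting cells among them, had the highest class I levels of any myeloid subcluster and did not differ beyond counting error. They were at 2123 CPM (1830 to 2449, 42 nuclei) and 2053 CPM (1830 to 2296, 68 nuclei), a ratio of -0.05 (-0.31 to 0.22), with Nlrc5 at 373 and 527 CPM (0.49, -0.10 to 1.13). That interval reaches -0.31, and whether this subcluster differs from the others in its ratio was not tested. Unnamed subcluster 3, led by genes of fibroblasts of whose nuclei 28.4% had UMIs of both sexes, was at 1162 CPM (1101 to 1225) and 818 CPM (775 to 863), and held Psmb8 at 61.3 and 42.1 CPM against 11.9 to 14.3 CPM in subclusters 1 and 2. Without it the ratio of the sum was -0.48 and 5 members were lower. Dividing nuclei were at 803 CPM (628 to 1011, 21 nuclei) and 537 CPM (444 to 644, 49 nuclei), a ratio of -0.59 (-1.02 to -0.14). With the subclusters weighted alike in both libraries it was -0.47 and 3 were lower.

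**Figure D4:**
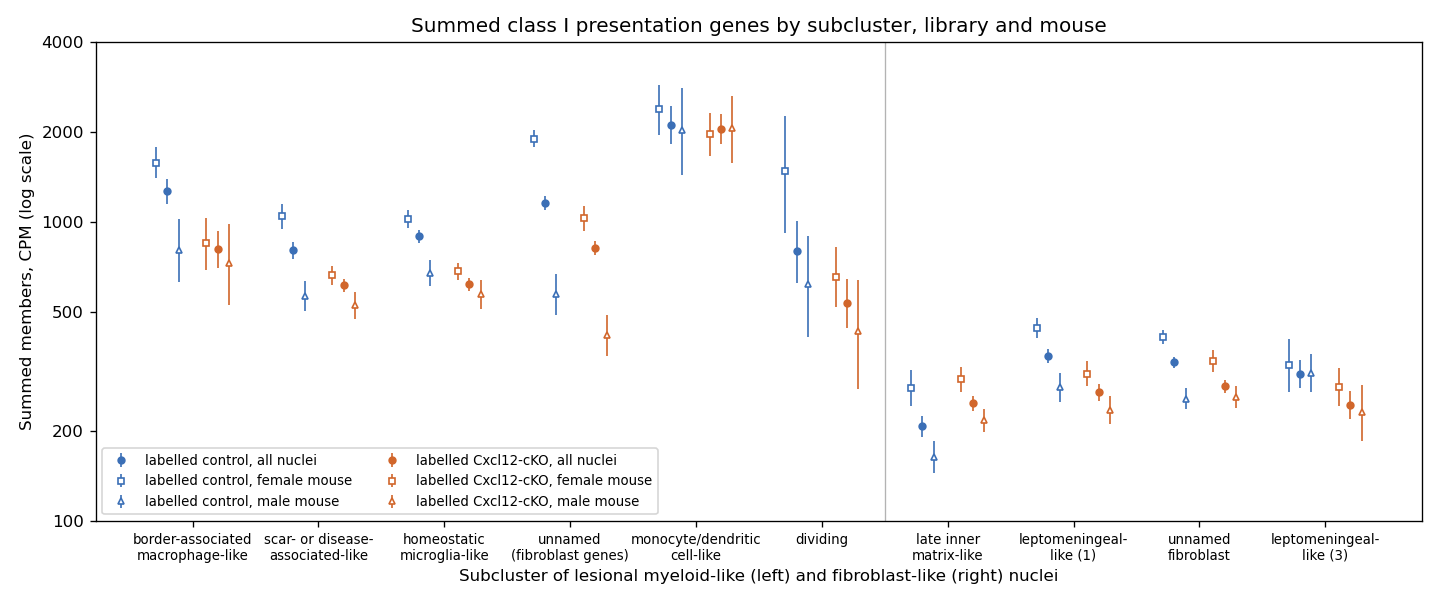
Summed CPM of the 9 members (log axis) in subclusters of lesional myeloid-like nuclei (left of the line) and fibroblast-like nuclei (right), for each library (blue, control-labelled; orange, cKO-labelled) and for its female (squares) and male (triangles) mouse; bars are exact Poisson intervals at 95%. Monocyte-or-dendritic-cell-like nuclei are highest at 2123 and 2053 CPM, and late-inner-matrix-like fibroblasts are the one fibroblast subcluster with the orange points above the blue.

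In lesional fibroblast-like nuclei the ratio of the sum was nearer to 0 and 1 gene, H2-D1, was counted as lower. Summed members were at 314 and 265 CPM, a log2 ratio of -0.25 (-0.31 to -0.18), and 1 of 9 members was lower, against 5.61% of 16556 genes. H2-D1 was at 30.8 CPM in the control-labelled and 18.3 CPM in the cKO-labelled library (-0.75, -0.98 to -0.53). Its near relative H2-K1 was at 62.2 and 58.1 CPM (-0.10, -0.24 to 0.04), and its light chain B2m at 71.2 and 61.6 CPM (-0.21, -0.34 to -0.08). The intervals of H2-K1 and H2-D1 did not meet. All 9 ratios were below 0, with a median of -0.21 against 0.003 over all genes. The fibroblast markers of these nuclei were at 4319 CPM in the control-labelled and 3805 CPM in the cKO-labelled library. Member UMIs per fibroblast or myeloid marker UMI were 0.0706 and 0.0669, and the part of this shift in the ratio was not tested.

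In fibroblast-like nuclei H2-D1 was the member whose interval lay below 0 in both sexes. It went from 38.6 to 20.6 CPM in the females (-0.90, -1.25 to -0.57) and from 23.2 to 16.7 CPM in the males (-0.48, -0.87 to -0.10). Summed members were at 400.5 CPM in the control-labelled female, 242 CPM in the control-labelled male, 314 CPM in the cKO-labelled female and 237 CPM in the cKO-labelled male, so the females had a ratio of -0.35 (-0.44 to -0.26) and the males one of -0.03 (-0.14 to 0.08). Nlrc5 differed between sexes more than between libraries, at 58.8 and 47.5 CPM in the females and 17.8 and 22 CPM in the males of the control-labelled and cKO-labelled library. The female was above the male in both libraries, by 1.72 (1.40 to 2.06) and 1.11 (0.80 to 1.42) on the log2 scale.

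Fibroblast subclusters differed in sign. Late-inner-matrix-like nuclei, the collagen-rich fibroblasts of the lesion core, were at 208 CPM (191 to 225, 884 nuclei) in the control-labelled and 248 CPM (234 to 263, 1167 nuclei) in the cKO-labelled library, a log2 ratio of 0.26 (0.11 to 0.40). Nlrc5 was at 13.3 and 30.5 CPM there (1.19, 0.68 to 1.75) and H2-K1 at 39.1 and 57.1 CPM (0.54, 0.22 to 0.87), while H2-D1 was at 15.7 and 16.8 CPM (0.09, -0.45 to 0.66). Both mice of the cKO-labelled library were above the mouse of the same sex in the control-labelled one in the sum. The leptomeningeal-like subcluster 1 was at 357 CPM (337 to 378) and 269.7 CPM (253 to 287), a ratio of -0.41 (-0.53 to -0.28), and H2-D1 in it was at 44.9 and 23.8 CPM (-0.91, -1.32 to -0.53). The unnamed subcluster 2 had a ratio of -0.26 (-0.36 to -0.17) for the sum and -0.77 (-1.15 to -0.40) for H2-D1, and leptomeningeal-like subcluster 3 ratios of -0.35 (-0.57 to -0.13) and -1.46 (-2.40 to -0.63). The lower H2-D1 of fibroblast-like nuclei was thus in 3 of 4 subclusters, and the late-inner-matrix-like nuclei already held the lowest H2-D1 in the control-labelled library.

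Among the glia of the lesion, astrocyte-like nuclei were at 237 and 179 CPM for the summed members, a log2 ratio of -0.40 (-0.57 to -0.24). There 2 of 9 members were lower, against 8.94% of 13564 genes, namely Nlrc5, at 56.1 and 32.9 CPM (-0.77, -1.14 to -0.41), and H2-D1, at 19.2 and 12.1 CPM (-0.67, -1.30 to -0.05). Nlrc5 was at 64.4 and 22.8 CPM in the females and at 38.0 CPM in the males of both libraries. Oligodendrocyte-like nuclei had a ratio of -0.68 (-1 to -0.37) on 203 and 146 member UMIs. Of their 4 members with at least 20 UMIs, 3 were lower, against 13.1% of 7777 genes: B2m at 84.6 and 39.4 CPM (-1.09), H2-D1 at 55.3 and 28.1 CPM (-0.96) and H2-K1 at 63.4 and 36.6 CPM (-0.79). Nlrc5 was at 76.4 and 67.5 CPM (-0.18, -0.79 to 0.43). Markers of other cells moved with these differences. Fibroblast markers were at 1019 and 739 CPM and myeloid markers at 274 and 233 CPM in astrocyte-like nuclei, and at 927 and 667 CPM and 358 and 266 CPM in oligodendrocyte-like nuclei, and their part in the ratios was not tested.

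Endothelial-like nuclei had the opposite sign. Their summed members were at 944 and 1113 CPM, a ratio of 0.24 (0.05 to 0.42), with B2m, H2-K1, H2-D1 and Tapbp between 0.30 and 0.43. Of 7 members counted, 1 was lower, against 15.1% of 7415 genes, which was Tap1 with 17 and 4 UMIs (-1.13, -3.29 to 0.36), and 0 were higher, against 15.0% of these genes. In T-cell-like nuclei the sum did not differ beyond counting error (-0.10, -0.30 to 0.11), and the members were divided. There 3 of 9 were lower, against 18.3% of 5073 genes: Tapbp with 27 and 9 UMIs (-1.07), Psmb9 with 16 and 7 UMIs (-0.68) and B2m with 68 and 32 UMIs (-0.62). Another 2 were higher, against 16.0% of these genes: Psmb8 with 13 and 20 UMIs (1.06) and Tap2 with 18 and 21 UMIs (0.68). These shares lie near or little above those of all genes at such low counts.

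Neuron-like nuclei held few class I UMIs, in numbers close to those computed from the fibroblast and myeloid marker UMIs of the same nuclei. Parenchymal excitatory-neuron-like nuclei had 739 member UMIs in 2201 nuclei of the control-labelled library (18.5 CPM, 17.2 to 19.9) and 759 in 2084 nuclei of the cKO-labelled one (19.5 CPM, 18.1 to 20.9). They also held UMIs of the 8 fibroblast markers at 32.3 and 32.3 CPM and of the 10 myeloid markers at 59.0 and 64.8 CPM, with no marker at 0. If these markers came with member UMIs in the ratio found in lesional fibroblast-like and myeloid-like nuclei, 680 and 646 member UMIs would be there, 92.0% and 85.2% of those counted. Where the marker and member UMIs of these nuclei came from was not tested.

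**Figure D5:**
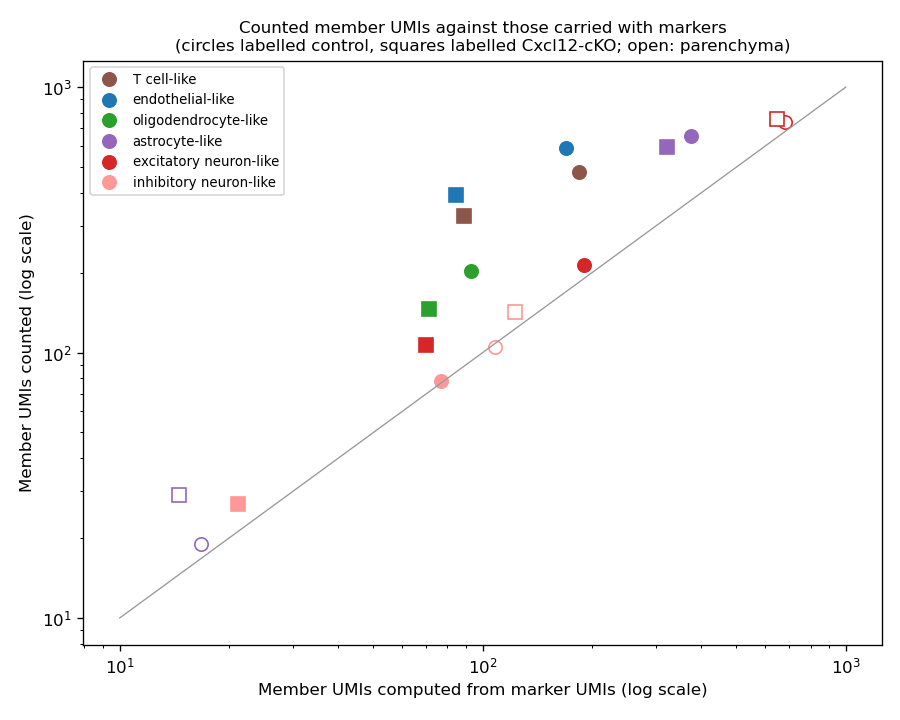
Member UMIs counted (vertical log axis) against those computed from the fibroblast and myeloid marker UMIs of the same nuclei (horizontal log axis) for each class outside fibroblasts and myeloid cells; circles are control-labelled, squares cKO-labelled, open symbols parenchyma, and the line marks equality. Neuron-like nuclei lie at or near the line, and T-cell-like and endothelial-like nuclei lie well above it.

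The members did not behave alike in this comparison. In parenchymal excitatory-neuron-like nuclei the computed number was 29.0% and 33.9% of the Tapbp UMIs (177 and 173 counted), 55.8% and 51.5% of those of Tap2, 75.1% and 65.6% of those of H2-D1 and 87.0% and 70.1% of those of B2m in the control-labelled and cKO-labelled library. It was 147% and 144% of those of H2-K1 and 429% and 337% of those of Nlrc5, of which 25 and 35 were counted. Tapbp therefore stood furthest above and Nlrc5 and Psmb9 furthest below the number computed. In lesional T-cell-like and endothelial-like nuclei the same computation gave 38.3% and 27.2%, and 28.8% and 21.6%, of all member UMIs, and in astrocyte-like nuclei 57.4% and 54.3%. For the members counted as lower in lesional astrocyte-like nuclei it gave 101% and 93.5% of the H2-D1 UMIs and 33.3% and 45.4% of those of Nlrc5.

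Between the libraries, parenchymal excitatory-neuron-like nuclei differed by 0.07 (-0.08 to 0.22) on the log2 scale for the sum. Of 7 members counted, 2 were higher in the cKO-labelled library, against 5.76% of 19216 genes, namely Tap1 with 14 and 21 UMIs (0.60, -0.43 to 1.71) and Nlrc5 with 25 and 35 UMIs (0.51, -0.26 to 1.32). Both intervals span 0. Parenchymal inhibitory-neuron-like nuclei had a ratio of 0.15 (-0.22 to 0.53), and 3 of 6 members were higher, against 6.31% of 14367 genes: H2-K1 with 8 and 21 UMIs (1.06, -0.12 to 2.49), Tap2 with 6 and 15 UMIs (0.97, -0.41 to 2.69) and B2m with 13 and 27 UMIs (0.74, -0.23 to 1.85). In lesional excitatory-neuron-like nuclei the ratio of the sum was 0.28 (-0.07 to 0.62), and 1 of 6 members was higher, against 7.95% of 13005 genes, which was Nlrc5 with 13 and 9 UMIs (0.77, -0.66 to 2.09). None of these differences was detectable at this depth.

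Excitatory-neuron-like nuclei of the lesion were higher in class I genes than those of the parenchyma in both libraries. The control-labelled nuclei were at 28.1 and 18.5 CPM, a log2 ratio of lesion over parenchyma of 0.60 (0.38 to 0.82), and the cKO-labelled ones at 34.0 and 19.5 CPM, a ratio of 0.81 (0.50 to 1.10). The median over all genes was -0.14 and -0.12 in the same contrasts, which also differ in depth. In the former, 5 of 7 members were higher, against 7.91% of 17714 genes: Nlrc5, from 0.63 to 1.71 CPM (1.47), Tap1 (1.23, 14 and 6 UMIs), H2-K1, from 2.46 to 4.86 CPM (1.00), Tap2, from 1.40 to 2.63 CPM (0.93), and B2m, from 4.79 to 8.53 CPM (0.84). H2-D1 was at 4.18 and 3.94 CPM (-0.07, -0.70 to 0.48). In the latter, 6 of 7 were higher, against 11.3% of 17524 genes, the same 5 and Tapbp (0.55, -0.23 to 1.19).

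Fibroblast markers were also higher in lesional than in parenchymal excitatory-neuron-like nuclei. They were at 155 and 95.8 CPM in the lesional nuclei of the control-labelled and cKO-labelled library, against 32.3 CPM in parenchymal ones. The myeloid markers were at 58.5 and 72.9 CPM in the lesional nuclei. The cKO-labelled library thus had the larger ratio of lesion over parenchyma but the lower level of fibroblast markers in the lesion. The part of these markers in the ratio was not tested. The number computed from marker UMIs was 88.6% and 65.2% of the member UMIs of the lesional nuclei, and every marker had UMIs there except Itgam, at 0 in the cKO-labelled nuclei. In nuclei with no marker UMI the ratio of lesion over parenchyma was 0.62 (0.05 to 1.13) in the control-labelled and 0.19 (-0.81 to 0.97) in the cKO-labelled library.

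The rest of the pathway was read from lists written with earlier results of these data known. Of 15 genes of peptide generation and loading beyond the members (among them Psmb10, Psme1, Erap1, Calr and Canx), 0 were lower and 0 higher in lesional myeloid-like nuclei, with a median log2 ratio of -0.09. Of 14 nonclassical class I genes, 11 had enough UMIs, 5 of which were lower and 1 higher (median -0.39), beside 7.80% and 6.61% of all genes. H2-Q7 was at 21.9 and 11.5 CPM (-0.93), H2-T23, whose product presents class I leader peptides to natural killer cells, at 17.7 and 9.90 CPM (-0.83), Fcgrt, the neonatal Fc receptor, at 27.6 and 15.6 CPM (-0.82) and H2-Q4 at 27.3 and 15.9 CPM (-0.78). Mr1, which presents vitamin metabolites, was at 10.7 and 15.9 CPM (0.56, 0.08 to 1.08).

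Of 23 regulators, 3 were lower and 1 higher (median -0.16), which is near the same shares of all genes. Irf1, an activator of class I promoters, was at 59.9 and 39.9 CPM (-0.59, -0.83 to -0.34). By mouse, Irf1 was at 80.6 CPM in the control-labelled female and between 35.5 and 39.4 CPM in the other 3 mice. The higher gene was Rfxap, a subunit of the RFX complex, with 22 and 48 UMIs (0.56, -0.18 to 1.37). A list of receptors of class I and related receptors held 11 genes, and whether each binds class I was not checked. Of these, 7 had enough UMIs, with 2 lower and 0 higher (median -0.01), beside 7.80% and 6.61% of all genes. The lower ones were Klrd1 at 6.52 and 2.73 CPM (-1.24) and Klra2 at 15.8 and 6.89 CPM (-1.19). Lilrb4a, at 374 and 455 CPM (0.28, 0.20 to 0.37), and Lilrb4b, at 254 and 346 CPM (0.44, 0.34 to 0.55), lay above 0 but under the threshold.

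MHC class II genes, which present to CD4+ T cells, were also lower, with ratios further from 0 than those of most members. In myeloid-like nuclei 6 of 7 were lower (median -0.82), against 7.80% of all genes, with Cd74, the invariant chain, at 321 and 164 CPM (-0.97, -1.08 to -0.86) and H2-Eb1 at 98.2 and 47.6 CPM (-1.04, -1.25 to -0.84). Summed over Cd74, H2-Aa, H2-Ab1 and H2-Eb1, the control-labelled female was at 859 CPM (817 to 901), the control-labelled male at 474 CPM (441 to 510.1), the cKO-labelled female at 304 CPM (285 to 323) and the cKO-labelled male at 398 CPM (369 to 429). The cKO-labelled female was thus the lowest of the 4 mice for these 4 class II genes, whereas it was the second highest for class I. Nuclei with no sex-linked UMI went the other way, at 452 CPM (400.5 to 508) in the control-labelled and 574 CPM (519.6 to 633) in the cKO-labelled library, and those with UMIs of both sexes were at 452 CPM (403 to 504) and 111 CPM (93.6 to 131). In fibroblast-like nuclei 5 of 7 class II genes were lower (median -1.01), against 5.61% of all genes, with H2-Aa at 7.93 and 2.26 CPM (-1.80). The same 4 genes summed to 40.1 and 17.3 CPM there, against 620 and 319 CPM in myeloid-like nuclei. Myeloid markers were at 131 and 155 CPM in the fibroblast-like nuclei, and the part of myeloid RNA in these class II values was not tested.

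Fibroblast-like nuclei had 1 called gene on each of the other lists, and 5.61% of all genes were lower and 7.19% higher. Peptide generation and loading had 1 of 15 lower, Tapbpl (4.42 and 2.95 CPM, -0.58), and a median of -0.03. Nonclassical genes had 1 of 11 lower, Hfe (4.56 and 2.47 CPM, -0.88), the regulators 1 of 23 higher, Irf8 (3.51 and 5.34 CPM, 0.60), and the receptors 1 of 4 higher, Lilrb4a (4.70 and 7.67 CPM, 0.70). Irf8 and Lilrb4a are known from macrophages, and myeloid markers were at 131 and 155 CPM in these nuclei, whose part in these values was not tested.

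Reads of close relatives bear on the heavy chains. No 90-base window in the last 500 bases of a member's transcript was shared with another gene (0 of 411 windows in each of the 9 members, GENCODE vM21 on GRCm38). Intronic reads of nuclei were not covered by this search, so levels of H2-K1, H2-D1 and the H2-Q and H2-T genes, which are near copies, stay uncertain where reads fall elsewhere in the gene. Whether intronic reads were counted, and with which strand setting, is not stated in the sources at hand, so overlapping neighbours are likewise uncertain.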

How the data were processed

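Single nuclei were profiled with 10x Genomics 3′ chemistry and CellPlex tags after sorting for DAPI. The authors deposited, per library and region, a filtered matrix of raw UMI counts per gene, made with Cell Ranger 9.0.0 on GRCm39 according to the submitters' processing notes. The 12 tag features and the tag libraries were not used here, and 0 columns of per-sample values were set aside.

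Over the 4 matrices together, both 2.5% tails of UMIs and of detected genes and the upper 2.5% tail of mitochondrial percentage were cut off, which took 1746 of 23489 barcodes. Nuclei (758 to 36243 UMIs) were clustered with scanpy 1.11.5 and leidenalg 0.10.2 at resolution 0.25, without the members and interferon genes, into 13 clusters, and a cluster took the marker list of highest mean log2 fold with at least 3 markers up, a threshold set after the clusters were seen. The unnamed cluster held 298 nuclei and was led by Drd2 and Adora2a. Named classes had 5 to 9 of their markers up. Doublets were not called, and nuclei with UMIs of both sexes were removed as an alternative. A nucleus was female by Xist and male by Eif2s3y, Kdm5d, Uty or Ddx3y.

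Levels are sums of UMIs by class, and CPM carry exact Poisson intervals. Log2 ratios, with 0.5 added to each sum, carry exact conditional binomial intervals, and shares exact Clopper-Pearson intervals (scipy 1.17.1). Libraries had no replicate, so there was no test across genes, and p-values were not computed. For the computed UMIs, the fibroblast and myeloid marker UMIs of a class were solved together as a mix of the lesional fibroblast-like and myeloid-like nuclei of its library. Genes outside the members were named where they had at least 50 UMIs, up to 4 per direction of a list by size of ratio. The ratios were tested on simulated data, which were Poisson counts drawn from control-labelled sums. Such counts hold no spread between mice or libraries, so the simulation does not bear on that spread. The members and lists were chosen with earlier results of these data known. Alternatives were another resolution, no barcode filter, nuclei weighted alike, another denominator, classes from each nucleus's own markers, 1 sex alone and neurons with no marker UMI. Alternatives on subclusters were added after seeing the data.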

Additional observations from a re-analysis of the deposited data

Results flagged for a closer look

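In lesional myeloid-like nuclei 3 members had ratios of the cKO-labelled over the control-labelled library on opposite sides of 0 in the female and the male mice. The log2 ratio was -0.40 in the females and 0.21 in the males for Tapbp (a difference of -0.61), -0.93 and 0.20 for Psmb9 (-1.13) and -0.54 and 0.11 for Nlrc5 (-0.65).

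In fibroblast-like nuclei of the lesion 4 members did so. The ratios were -0.38 and 0.06 for B2m (-0.44; -0.435 before rounding), -0.14 and 0.14 for H2-K1 (-0.28), -0.81 and 0.30 for Psmb9 (-1.11) and -0.31 and 0.31 for Nlrc5 (-0.61). With 1 mouse of each sex per library these differences were not tested, and sex and mouse cannot be told apart.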

How the results depend on the processing

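Values are log2 ratios of summed members, cKO-labelled over control-labelled unless stated. In lesional myeloid-like nuclei -0.50 became -0.40 with nuclei weighted alike, -0.82 in the females alone and -0.23 in the males alone. The number of members counted as lower there, 4, became 2 with nuclei weighted alike, 2 without nuclei of both sexes, 7 in the females and 1 in the males. In fibroblast-like nuclei the ratio was -0.35 in the females and -0.03 (-0.0281) in the males, with 2 and 0 members lower in place of 1. Astrocyte-like nuclei gave -0.65 (-0.645) in the females and 0.05 (0.046) in the males. Lesional excitatory-neuron-like nuclei gave 0.63 in the males and -0.52 among those with no fibroblast or myeloid marker UMI, and parenchymal ones -0.0807 among the latter. The ratio of lesion over parenchyma was 0.33 without nuclei of both sexes and 0.26 in the females of the control-labelled library, and 0.19 (0.185) in cKO-labelled nuclei with no marker UMI. The cause of these shifts was not tested. Another 72 summary values stayed within their counting interval or, for numbers of members, within 1.5 times, and of the values of single members 153 stayed so and 18 did not. All 9 members stayed below 0 in myeloid-like nuclei under every alternative except the males alone (6), and in fibroblast-like nuclei except the males alone (5) and classes from own markers (7). No paired analysis was possible because each genotype had 1 library, which its 2 mice shared. The values within each sex are those given above, and myeloid-like nuclei of neither sex went from 905 to 988 CPM. Class I genes were sparse in neuron-like nuclei, where depth limits every ratio of single members.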

Other observations

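Females were above males for the summed members in lesional fibroblast-like and myeloid-like nuclei of both libraries. The log2 ratio of female over male was 0.73 (0.63 to 0.82) in control-labelled and 0.41 (0.30 to 0.51) in cKO-labelled fibroblast-like nuclei. In myeloid-like nuclei Psmb8 had the ratio furthest from 0 in both libraries, at 1.70 and 1.04.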
